A study of Mus musculus with 9 samples.

Results

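The costimulatory and dendritic maturation genes described here are 10 gene symbols fixed by name, not by their values, out of 23420 symbols whose RNA was sequenced in 9 libraries of Mac1+ cells from bone marrow. They are Cd40, Cd80, Cd83, Cd86, Cd274, Pdcd1lg2, Tnfsf9, Icosl, Relb and Fscn1, and all 10 had a row in the deposited values. Each library was made from 100 sorted cells of mice of the C57BL/6 strain, in a study of Ezh2 and Runx1 mutations and early thymic progenitor leukaemia. All 3 groups were Ezh2 fl/fl and Runx1 fl/fl, the controls included. The DKOITD group (n = 4) also carried Rag1Cre+ and Flt3 ITD/+, the ITD group (n = 2) carried Flt3 ITD/+ without Cre, and the group called WT (n = 3) carried neither. ITD is an internal tandem duplication of the receptor kinase Flt3. Rag1 is a gene of lymphoid progenitors, so Rag1Cre is driven from a lymphoid locus while the sort took cells with the myeloid integrin Mac1. The sources used here give neither the ages of the animals, nor the state of the floxed alleles in the sorted cells, nor whether each library came from its own animal. The p-values therefore measure the spread between these libraries.

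A dendritic cell that meets a microbial or inflammatory signal matures: it shows more antigen on MHC class II, brings costimulatory ligands to its surface, changes its shape and moves to a lymph node. Cd80, Cd86 and Icosl are B7 family ligands that T cells read through Cd28, Ctla4 and Icos, while Cd274 (PD-L1) and Pdcd1lg2 (PD-L2) are the B7 family ligands of the inhibitory receptor Pdcd1. Tnfsf9 is the ligand of Tnfrsf9, a costimulatory receptor on T cells, and Cd40 receives the T cell signal Cd40lg and passes it to NF-κB. Cd83 is a surface marker of mature dendritic cells, Relb an NF-κB subunit needed for dendritic cell development and maturation, and Fscn1 (fascin) the actin bundler of dendritic processes.

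The reads recovered from the deposited values ran from 2827205 in DKOITD 2 to 23132610 in WT 1. For a gene of 1 kb, 1 read was worth 0.274 RPKM in DKOITD 2, against 0.0534 RPKM in WT 1, so low values were coarsest in DKOITD 2. Of 8 neutrophil markers found, 8 fell in DKOITD against WT, with a summed level of 31716 to 237202 RPKM in DKOITD, 615136 to 649316 RPKM in ITD and 791571 to 1116600 RPKM in WT. The 12 dendritic markers summed to 9388 to 37929 RPKM in DKOITD, 4211 to 11371 RPKM in ITD and 44.3 to 1203 RPKM in WT, and 10 of 11 tested rose in DKOITD against WT. Of those that rose, Flt3 and Clec9a reached 1 RPKM outside DKOITD in ITD 2 alone. Zbtb46, which did not rise, reached it in DKOITD libraries alone. These entered the test through DKOITD, so this count is a description. The sort marker itself, Itgam, measured 10.98 to 39.0 RPKM in DKOITD 1 to 4, 78.1 and 97.3 RPKM in ITD and 90.3 to 143 RPKM in WT. Monocyte and macrophage markers rose for 4 of 7 in DKOITD against WT, with summed levels of 1999.6 to 3293 RPKM in DKOITD, 3721 to 3863 RPKM in ITD and 2553 to 3183 RPKM in WT. Most of these sums was Ly6c2, which did not rise, at a mean of 1749 RPKM in DKOITD, 3244 RPKM in ITD and 2686 RPKM in WT. In DKOITD against WT, 7.43% of all tested genes rose and 5.27% fell. In bulk samples, more cells of a type and more RNA per cell cannot be told apart, and this holds for every difference below. The part of cell composition in these differences was not tested. WT 2 stood apart: its median correlation to the rest, taken across genes, was 0.759, where the other libraries had medians of 0.8145 to 0.881.

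Of the 10 genes, 9 reached 1 RPKM in at least 2 libraries and were tested; Pdcd1lg2 did not. Fscn1 reached that level in DKOITD libraries alone, and Tnfsf9 outside DKOITD in WT 3 alone, so both entered the test through DKOITD, the group where they are high. Counts over the 9 genes are therefore a description. Between DKOITD and WT, 3 of the 9 rose and 0 fell (limma, Benjamini-Hochberg adjusted p under 0.05), in a fit where 7.43% of all 10868 genes rose. The 3 were Cd83, Tnfsf9 and Cd40. DKOITD lay above WT in every library for 4 of the 9 (Cd83, Tnfsf9, Icosl and Fscn1), as did 14.1% of all genes. Over all genes, 807 rose and 573 fell, with a median log2 difference of 0.17. Scaled per recovered read in place of the deposited RPKM, 2525 rose and 247 fell, the median moved to 0.74, and 5 of the 9 genes passed, with Icosl at 2.27 and Relb at 2.60 added.

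The labels of DKOITD 1 to 3 carry numbers from 228 to 274, and those of DKOITD 4 and of all ITD and WT libraries numbers from 385 to 393. No label says what they stand for. With the number series as a term the comparison rests on DKOITD 4, and 0 of the 9 genes passed in DKOITD against WT. Cd83 then stood at 4.96 (adjusted p = 0.23), Cd40 at 4.25 (adjusted p = 0.346) and Tnfsf9 at 2.59 (adjusted p = 0.312), while Cd86 and Cd274 turned to -0.77 and -0.38. In DKOITD 4, Cd83 (46.4 RPKM), Cd40 (30.7 RPKM), Relb (8.07 RPKM), Tnfsf9 (6.67 RPKM) and Fscn1 (0.425 RPKM) lay above all ITD and WT libraries. Relb did so narrowly, beside 8.03 RPKM in WT 2. Cd80, Cd86, Cd274, Icosl and Pdcd1lg2 did not. The share of all genes with this pattern was not counted, so these values of a single library are a description.

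**Figure D1:**
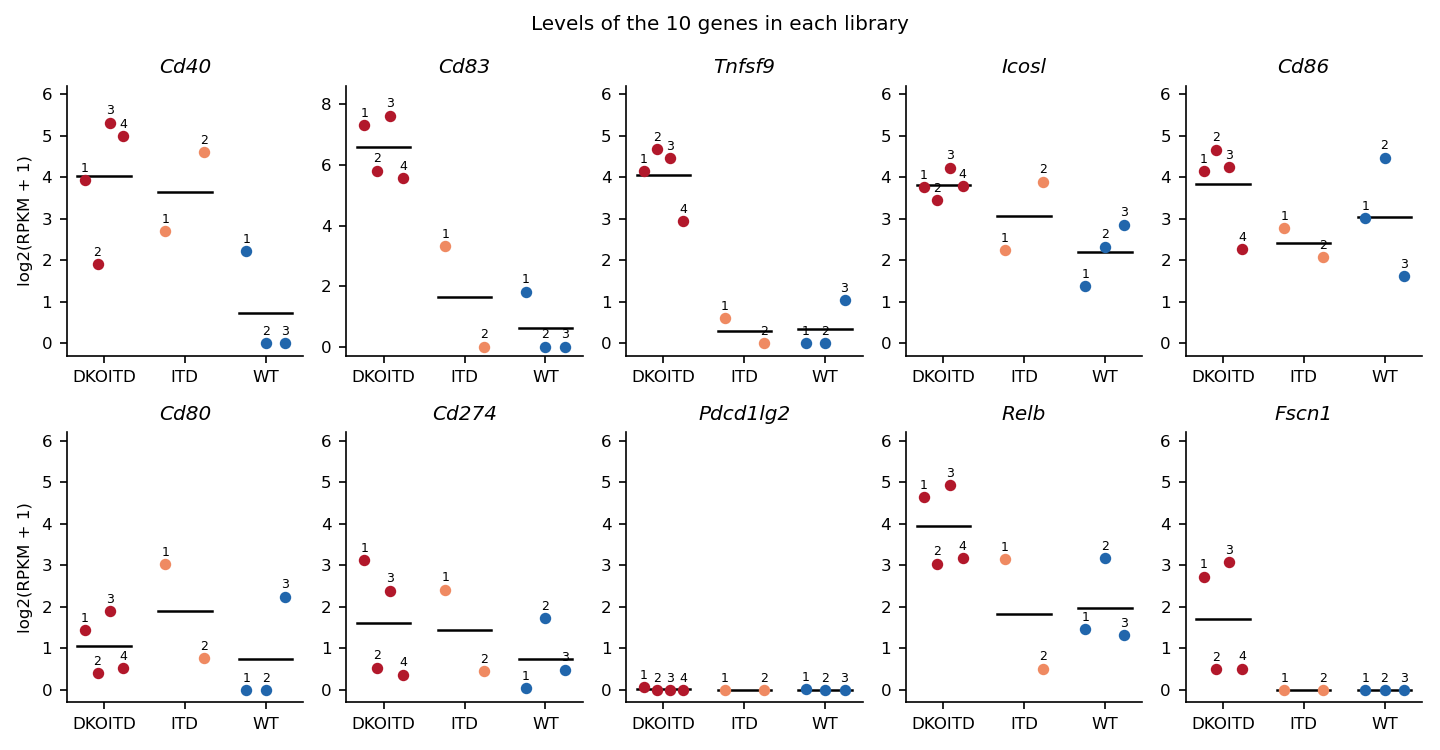
Levels of the 10 genes as log2(RPKM + 1) in each library. Points are libraries, numbered as in the labels, and bars are group means; the axis of Cd83 is longer than the others. Cd83 and Tnfsf9 stand above the ITD and WT libraries in all 4 DKOITD libraries, and Pdcd1lg2 lies at or near 0 throughout.

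Cd83 was the highest of the 10 genes in every DKOITD library and had the largest difference of the 9 tested. It lies on chromosome 13 in mm10, from 43784775 to 43803132. It measured 158, 55.1, 196 and 46.4 RPKM in DKOITD libraries 1 to 4, against 8.94 and 0 RPKM in ITD 1 and 2 and 2.52, 0 and 0 RPKM in WT libraries 1 to 3. The lowest DKOITD library was 18.5 times the highest WT library. The log2 rise of Cd83 over WT was 5.97 ± 0.80 (SE; adjusted p = 0.00187). It held 42.3% to 61.5% of the summed RPKM of the 10 genes in each DKOITD library. The 10 genes together summed to 258, 125, 335 and 110 RPKM in DKOITD 1 to 4, against 43.9 and 41.8 RPKM in ITD 1 and 2, and 16.7, 35.6 and 15.03 RPKM in WT. Without Cd83 the sums were 99.4, 70.2, 140 and 63.3 RPKM in DKOITD, against 34.9 and 41.8 RPKM in ITD 1 and 2, and 14.2, 35.6 and 15.03 RPKM in WT, so the DKOITD libraries remained above the rest by this sum.

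Tnfsf9, the TNF family ligand (chromosome 17, 57105325 to 57107757), measured 16.6, 24.7, 21.04 and 6.67 RPKM in DKOITD 1 to 4. ITD 1 and 2 had 0.520 and 0 RPKM of it, and WT 1 to 3 had 0, 0 and 1.05 RPKM. These rest on 247, 111, 280 and 123 recovered reads in DKOITD, against 3 and 0 in ITD and 0, 0 and 15 in WT. The log2 rise of Tnfsf9 over WT was 3.71 ± 0.55 (SE; adjusted p = 0.00309), and no DKOITD library overlapped the others. Both Cd83 and Tnfsf9 kept this call with any library left out, with adjusted p of at most 0.0105 and 0.0152.

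Cd40, the receptor among the 10 genes (chromosome 2, 165055627 to 165072948), rose in DKOITD against WT and was also above WT in both ITD libraries. Its levels were 14.3, 2.76, 38.9 and 30.7 RPKM in DKOITD 1 to 4, 5.49 and 23.2 RPKM in ITD 1 and 2, and 3.65, 0 and 0 RPKM in WT. DKOITD 2, at 18 reads, lay below WT 1, at 122 reads, so the groups overlapped. The log2 difference was 3.30 ± 0.85 (SE; adjusted p = 0.0277). This call held in 4 of 9 fits that left out a library, and ended without DKOITD 1, DKOITD 3, DKOITD 4, WT 2 or WT 3 (adjusted p of 0.0624 to 0.0899).

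The B7 ligands that activate T cells differed from gene to gene. Icosl (chromosome 10, 78069302 to 78083913) measured 12.5, 9.95, 17.8 and 12.9 RPKM in DKOITD 1 to 4, 3.72 and 13.9 RPKM in ITD 1 and 2, and 1.61, 4.02 and 6.25 RPKM in WT. It varied least of the 9 tested genes within DKOITD, 1.79-fold from the lowest to the highest library, and its DKOITD and WT libraries did not overlap. Its log2 difference of 1.62 ± 0.52 against WT did not pass (SE; adjusted p = 0.0588), but passed at 1.95 without WT 3 (adjusted p = 0.0354).

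Cd86 had the highest WT mean of the 5 B7 ligands among the 10 genes. It measured 16.8, 24.5, 17.9 and 3.81 RPKM in DKOITD 1 to 4, 5.88 and 3.22 RPKM in ITD 1 and 2, and 7.13, 21.3 and 2.07 RPKM in WT. DKOITD 4 lay below WT 1 and WT 2, and the difference was 0.79 ± 0.71 (SE; adjusted p = 0.467). It ran from 0.08 without WT 3 to 1.51 without WT 2, and passed in no fit that left out a library.

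Cd80, the other ligand of Cd28 and Ctla4, was low in all groups. It measured 1.71, 0.322, 2.72 and 0.432 RPKM in DKOITD 1 to 4, 7.14 and 0.702 RPKM in ITD 1 and 2, and 0, 0 and 3.76 RPKM in WT. Its highest value was in ITD 1, and the difference of 0.31 ± 0.71 between DKOITD and WT (SE; adjusted p = 0.795) turned to -0.02 under quantile normalization. The ratio of Cd86 to Cd80 was 9.85, 76.0, 6.58 and 8.83 in DKOITD, 0.822 and 4.59 in ITD and 0.552 in WT 3. WT 1 and WT 2 had no ratio, with Cd86 at 7.13 and 21.3 RPKM and Cd80 listed at 0, so the ratios give no order of DKOITD and WT. The ratio in DKOITD 2 rests on 2 reads of Cd80. The genes lie on chromosome 16 in mm10, Cd86 from 36603869 to 36666081 and Cd80 from 38455561 to 38496335.

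Cd274 and Pdcd1lg2 are neighbours on chromosome 19, at 29367455 to 29388095 and 29410919 to 29471161, with 22823 bases between them. Cd274 was above 0 in all 9 libraries, at 7.68, 0.451, 4.24 and 0.293 RPKM in DKOITD 1 to 4, 4.33 and 0.375 RPKM in ITD 1 and 2, and 0.0294, 2.31 and 0.403 RPKM in WT. It spanned 26.2-fold within DKOITD, and its difference against WT was 0.85 ± 0.76 (SE; adjusted p = 0.47). Pdcd1lg2 was listed at 0.0486 RPKM in DKOITD 1 and 0.0156 RPKM in WT 1, which correspond to 2 reads and 1 read, and at 0 in the other libraries. At these depths no level of Pdcd1lg2 and no difference between groups could be told. Of the 5 genes with a promoter window, these neighbours and Cd80 are those whose window held a motif match. Their sequences are given here from RefSeq on GRCm38.p6, read 5′ to 3′ on the plus strand, which is the coding strand of all 3. They cover the 250 bases before the RefSeq start: chr19:29367188-29367437 for Cd274, chr19:29410669-29410918 for Pdcd1lg2 and chr16:38458683-38458932 for Cd80. The Cd80 window lies inside the GENCODE position of the gene given above, which starts at 38455561. Capitals mark motif matches on either strand.
Cd274: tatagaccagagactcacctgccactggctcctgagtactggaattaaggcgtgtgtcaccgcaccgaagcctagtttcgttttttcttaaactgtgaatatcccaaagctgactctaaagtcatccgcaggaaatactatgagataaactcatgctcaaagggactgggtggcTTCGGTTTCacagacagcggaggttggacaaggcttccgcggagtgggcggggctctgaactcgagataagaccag
Pdcd1lg2: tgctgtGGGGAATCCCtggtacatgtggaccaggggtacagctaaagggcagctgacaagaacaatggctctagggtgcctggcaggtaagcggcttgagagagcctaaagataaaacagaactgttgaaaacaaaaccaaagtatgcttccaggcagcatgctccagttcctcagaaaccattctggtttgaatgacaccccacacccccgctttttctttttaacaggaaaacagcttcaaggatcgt
Cd80: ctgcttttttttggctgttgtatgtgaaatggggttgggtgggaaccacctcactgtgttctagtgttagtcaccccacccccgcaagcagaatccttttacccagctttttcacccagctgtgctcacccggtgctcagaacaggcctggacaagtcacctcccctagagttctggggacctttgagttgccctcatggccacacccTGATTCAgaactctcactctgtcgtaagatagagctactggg
The capitals in Cd274 match GAAANNGAA, a core of interferon response elements, on the reverse strand, 76 to 68 bases before the start. This motif occurs in 7.13% of all 32851 windows of this length. In Pdcd1lg2 the capitals match the NF-κB consensus, 244 to 235 bases before the start, which 3.90% of windows hold. In Cd80 they match TGANTCA, the AP-1 motif, 42 to 36 bases before the RefSeq start, found in 6.75% of windows. The matches in Pdcd1lg2 and Cd80 read as the motif on both strands. GGAANNGAA and GAGGAAGT, searched as the Ets-IRF composite and the PU.1 core, were not in the windows of the 5 genes matched, which also include Icosl and Fscn1, and occur in 6.99% and 2.44% of all windows. The windows of Icosl and Fscn1 held no match to any motif searched. A match describes letters and not binding.

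Relb, the transcription factor among the 10 genes (chromosome 7, 19606217 to 19629438), measured 23.97, 7.21, 29.5 and 8.07 RPKM in DKOITD 1 to 4, 7.85 and 0.426 RPKM in ITD 1 and 2, and 1.75, 8.03 and 1.49 RPKM in WT. DKOITD 1 and 3 stood above all other libraries, while DKOITD 2 lay below WT 2. The log2 difference against WT was 1.96 ± 0.74 (SE; adjusted p = 0.1003). Fscn1 lies on chromosome 5, from 142960343 to 142973185. Its levels were 5.63, 0.410, 7.45 and 0.425 RPKM in DKOITD 1 to 4, and it was listed at 0 in both ITD and all 3 WT libraries. The values in DKOITD 2 and 4 rest on 4 and 17 reads. Its difference of 1.70 ± 0.64 (SE; adjusted p = 0.0972) did not pass. It depends on the pseudocount, and with a pseudocount of 0.1 it was 4.21 (adjusted p = 0.0498).

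**Figure D2:**
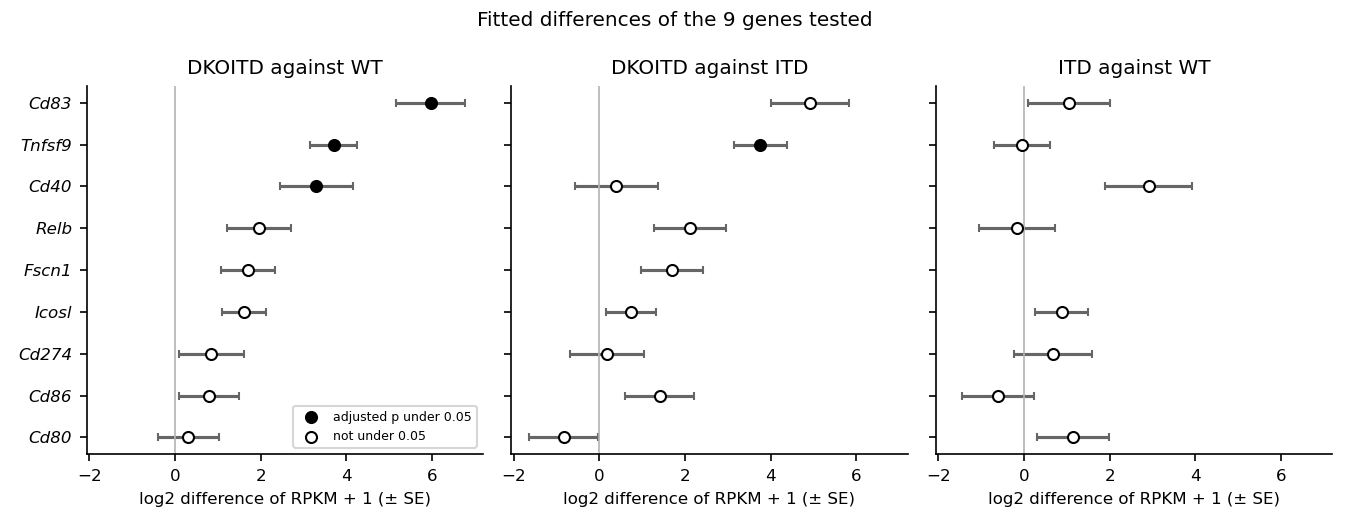
Fitted log2 differences of RPKM + 1 with their standard errors for the 9 genes tested, in each of the 3 comparisons; filled points have an adjusted p under 0.05. Cd83 (5.97), Tnfsf9 (3.71) and Cd40 (3.30) passed in DKOITD against WT, and Tnfsf9 (3.75) in DKOITD against ITD. Fscn1 has no point in ITD against WT, where it was listed at 0 in all 5 libraries.

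DKOITD against ITD sets groups that share the floxed alleles and the Flt3 ITD allele and differ by Rag1Cre. This comparison and the one above share the DKOITD libraries. Of the 9 genes 1 rose, Tnfsf9, by 3.75 ± 0.62 (SE; adjusted p = 0.0372), where 0.156% of all genes rose. Tnfsf9 met the filter on low values only through DKOITD, and with no filter the call ended (adjusted p = 0.0899). It also ended with a pseudocount of 0.1 (adjusted p = 0.0787) and with the number series as a term (2.64; adjusted p = 1). The call held in 4 of 9 fits that left out a library (adjusted p of 0.0118 to 0.266) and ended without DKOITD 1, DKOITD 2, DKOITD 3, ITD 1 or ITD 2. Cd83 differed by 4.92 ± 0.91 (SE; adjusted p = 0.0578) and passed without DKOITD 4 or WT 2, at adjusted p of 0.0295 and 0.0481. The DKOITD libraries lay above the ITD libraries for 3 of the 9 genes (Cd83, Tnfsf9 and Fscn1), as did 17.3% of all genes.

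The other genes did not pass against ITD. Relb differed by 2.12 ± 0.84 (SE; adjusted p = 0.244), Fscn1 by 1.70 ± 0.72 (SE; adjusted p = 0.279) and Cd86 by 1.40 ± 0.80 (SE; adjusted p = 0.436). Icosl at 0.74 ± 0.59, Cd40 at 0.39 ± 0.97 and Cd274 at 0.17 ± 0.87 were nearer to 0, and Cd80 stood at -0.83 ± 0.81 (SE; adjusted p of 0.585, 0.89, 0.956 and 0.667). The ITD libraries themselves were unlike each other: ITD 1 was the higher for Cd80, Cd83, Cd86, Cd274, Relb and Tnfsf9, and ITD 2 for Cd40 and Icosl.

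By its labels, ITD differs from WT by the Flt3 ITD allele alone, and the comparison shares a group with each one above. No gene of the 9 passed (limma), where 0.0092% of all genes, which is 1 gene, rose. At an unadjusted p under 0.05 there was 1 of the 9, beside 7.93% of all genes. Cd40 had the largest difference, 2.91 ± 1.02 (SE; adjusted p = 0.502), and was the 1 gene of the 9 whose ITD libraries lay above all WT libraries, as in 10.1% of all genes. Cd80 differed by 1.15 ± 0.85, Cd83 by 1.05 ± 0.96, Icosl by 0.88 ± 0.62 and Cd274 by 0.69 ± 0.91 (SE; adjusted p of 0.754, 0.787, 0.742 and 0.864). Cd86 at -0.61 ± 0.84, Relb at -0.15 ± 0.89 and Tnfsf9 at -0.04 ± 0.65 had negative values (SE; adjusted p of 0.87, 0.995 and 1). With 2 ITD libraries the standard errors were wide, so these values do not show that the groups were alike.

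The order of the genes, on the RPKM scale, which is per length, differed between groups. By DKOITD mean, Cd83 came first at 114 ± 74.6 RPKM, followed by Cd40 (21.7 ± 16.2), Tnfsf9 (17.3 ± 7.79), Relb (17.2 ± 11.3), Cd86 (15.7 ± 8.64) and Icosl (13.3 ± 3.29), all as mean ± SD with n = 4. The ranges of mean ± SD of the 5 genes after Cd83 overlapped. Fscn1 (3.48 ± 3.61), Cd274 (3.17 ± 3.52) and Cd80 (1.29 ± 1.14) came lower, also with overlapping ranges, and their means lay above that of Pdcd1lg2 (0.0121 ± 0.0243). In WT the highest gene was Cd86 in WT 1 and WT 2 and Icosl in WT 3, with Cd86 at 10.2 ± 9.95 RPKM and Icosl at 3.96 ± 2.32 RPKM (SD, n = 3). In ITD it was Cd83 in ITD 1 and Cd40 in ITD 2.

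DKOITD libraries with nearly equal MHC class II levels differed in several of the 10 genes. The summed level of Cd74, H2-Aa, H2-Ab1 and H2-Eb1, the invariant chain and class II chains, was 34957, 33800 and 34315 RPKM in DKOITD 1, 3 and 4, and 8857 RPKM in DKOITD 2. ITD 1 and 2 had 3995 and 10742 RPKM, and WT 1 to 3 had 1197, 169 and 44.2 RPKM. DKOITD 4 had nearly the class II level of DKOITD 1 and 3, yet 46.4 RPKM of Cd83 beside their 158 and 196. The same library was lower than DKOITD 1 and 3 for Cd80, Cd86, Cd274, Tnfsf9, Relb and Fscn1, while its Cd40 of 30.7 RPKM and its Icosl of 12.9 RPKM lay between theirs. The summed neutrophil markers were also highest in DKOITD 4 among the DKOITD libraries, at 52278, 179675, 31716 and 237202 RPKM in DKOITD 1 to 4. Their part in these differences was not tested.

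DKOITD 2 and ITD 2 were close in class II level, at 8857 and 10742 RPKM, and far apart in several of the 10 genes. Cd83 measured 55.1 RPKM in DKOITD 2 and 0 in ITD 2, and Tnfsf9 24.7 and 0 RPKM. Cd40 was the reverse, at 2.76 RPKM in DKOITD 2 and 23.2 RPKM in ITD 2. Per 1000 RPKM of class II, Cd83 stood at 4.53, 6.22, 5.79 and 1.35 RPKM in DKOITD 1 to 4 at 2.24 and 0 in ITD, and at 2.10, 0 and 0 in WT. The same ratio of Cd86 was 0.481, 2.76, 0.529 and 0.111 in DKOITD, 1.47 and 0.3002 in ITD, and 5.96, 125.5 and 46.9 in WT. By this ratio Cd86 was higher in every WT library than in any DKOITD library. The same held for Icosl, at 1.35, 23.7 and 141 in WT and at most 1.12 in DKOITD. It held for Relb, at 1.46, 47.4 and 33.7 in WT and at most 0.872 in DKOITD. The class II sums that divide these values were only 1197, 169 and 44.2 RPKM in WT, so the ratio does not set Cd86 apart. These are values of single libraries and carry no test.

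**Figure D3:**
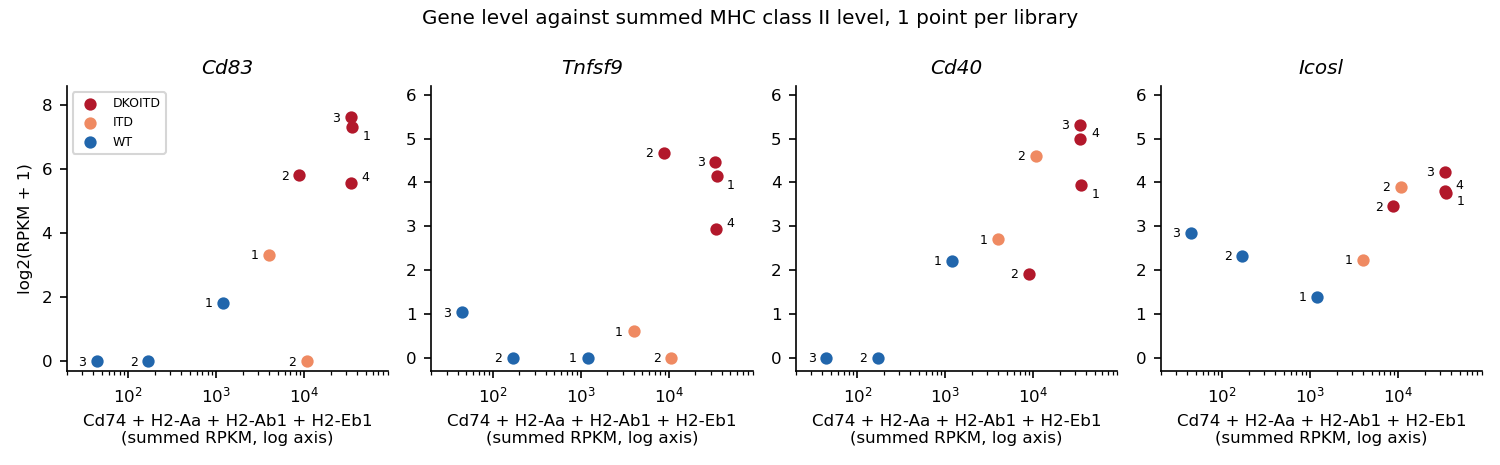
Level of Cd83, Tnfsf9, Cd40 and Icosl as log2(RPKM + 1) against the summed RPKM of Cd74 and 3 class II chains on a log axis, 1 point per library with its number; the axis of Cd83 is longer. Among class II sums of 33800 to 34957 RPKM, DKOITD 4 lies below DKOITD 1 and 3 for Cd83 and Tnfsf9 but not for Cd40, and ITD 2, at 10742 RPKM, is at 0 for Cd83 and Tnfsf9.

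Genes whose centred log2(RPKM + 1) profile over the 9 libraries was nearest to each of the 9, by the mean absolute difference, were the following. For Cd83 they were the creatine kinase Ckb (0.71) and the tetraspanin Tspan3 (0.76), and for Tnfsf9 the reductase Akr1e1 (0.27) and the small nucleolar RNA Snora31 (0.28). Cd40 had AI607873 (0.61) and Gm5431 (0.63), and Icosl had the chaperone gene Dnajc7 (0.18) and 2810408M09Rik (0.22). Relb had the linker histone H1f0 (0.43) and the kinase Plk2 (0.47), and Fscn1 had Bcl2l14 (0.16) and Gucy2c (0.21). Cd86 had Arrdc4 (0.38) and Hist1h3e (0.39), Cd80 had Lrdd (0.26) and Tfpi2 (0.32), and Cd274 had Tnfaip8l1 (0.37) and Tmeff1 (0.37). Within the 9 genes the nearest to Cd83 was Tnfsf9 (1.32), to Cd40 it was Fscn1 (1.28), and for Fscn1 and Cd274 each was nearest to the other (0.69). These were sought among the 9 genes, and those above among all other tested genes. A search over far more genes finds nearer ones, so the distances cannot be set against each other. Low genes differ little on this scale whatever their pattern.

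The list of other dendritic maturation and migration genes was also chosen with these results known. Of 22 listed, 17 were tested, 8 rose in DKOITD against WT and 1 fell, with a median log2 difference of 1.80 beside 0.17 for all genes; 7.43% of all genes rose and 5.27% fell. Of the 17, 7 were listed at 0 in every ITD and WT library and so entered the test through DKOITD. Aldh1a2, at most 0.0781 RPKM outside DKOITD, entered in the same way. Of the genes that rose, Ccr7, Ccl22, Socs2, Cacnb3, Cd200 and Aldh1a2 are of this kind, so the counts and the median are a description. Ccr7, the receptor that guides dendritic cells to lymph nodes, measured 140, 26.7, 87.0 and 9.19 RPKM in DKOITD and 0 in the other 5 libraries. Like Cd83 and Relb it was higher in DKOITD 1 and 3 than in DKOITD 2 and 4. It rose by 5.44 ± 0.76 (SE; adjusted p = 0.00232), the chemokine Ccl22 by 3.599 ± 0.45 (SE; adjusted p = 0.00133) and the signalling inhibitor Socs2 by 3.28 ± 0.49 (SE; adjusted p = 0.00326). The fall was Marcksl1 (-1.67 ± 0.48, SE; adjusted p = 0.0421). Against ITD, 3 of the 17 rose, and they were Ccr7, Ccl22 and Socs2, which all entered the test through DKOITD. Lamp3, Il12b, Il4i1 and Ccl19, also genes of mature dendritic cells, did not reach the level for testing.

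Of 24 NF-κB and CD40 signalling genes tested, 2 rose and 0 fell in DKOITD against WT, where 7.43% of all genes rose. Their share is near that of all genes, and their median log2 difference was 0.20, beside 0.17 for all genes. Traf1, an adaptor that NF-κB induces, measured 19.3, 4.47, 10.4 and 2.12 RPKM in DKOITD 1 to 4, 0.0917 and 0.403 RPKM in ITD 1 and 2, and 0.896, 0 and 0 RPKM in WT. Its log2 rise over WT was 2.68 ± 0.63 (SE; adjusted p = 0.0195), and that of the adaptor Traf5 was 2.55 ± 0.61 (SE; adjusted p = 0.0217). Traf1 stayed under 1 RPKM in every ITD and WT library and so entered the test through DKOITD. Nfkb2, whose product is the partner of Relb, differed by -0.20 ± 0.59 (SE; adjusted p = 0.844), beside 1.96 for Relb itself, and Nfkb1 by 1.01 ± 0.35 (SE; adjusted p = 0.0805). Against ITD the median over the 24 was 0.45, beside 0.11 for all genes.

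**Figure D4:**
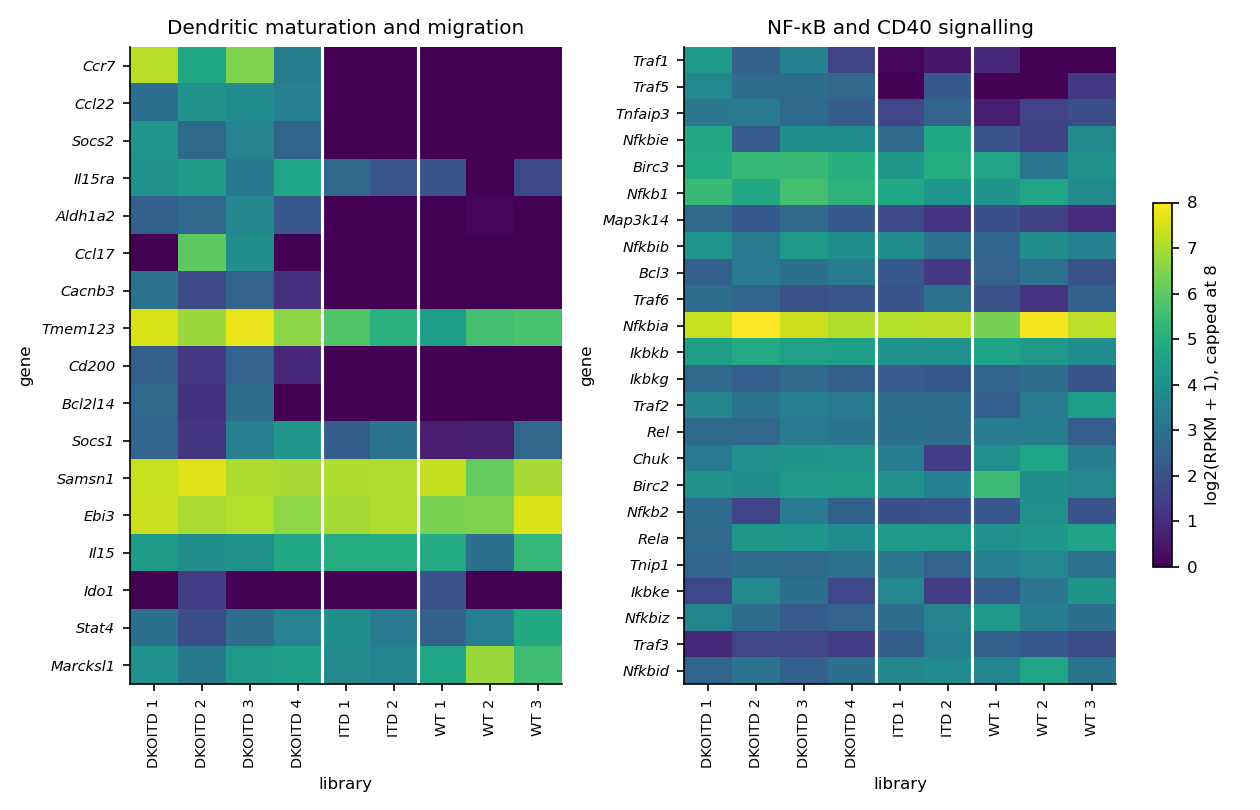
Level of each tested gene of the maturation list and of the NF-κB and CD40 list as log2(RPKM + 1), by library, ordered by the difference between DKOITD and WT; the colour is capped at 8 and white lines part the groups. Ccr7, Ccl22 and Socs2 are at 0 outside DKOITD, and Traf1 and Traf5 are the 2 genes of the NF-κB and CD40 list that rose against WT.

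The list of other B7 and TNF family ligands also held Icam1, Cd200, Lgals9, Pvr and Pvrl2, which belong to neither family. Its genes went in different directions. Of 20 listed, 11 were tested, 3 rose and 2 fell in DKOITD against WT (median 0.63). Of all genes, 7.43% rose and 5.27% fell (median 0.17). The adhesion molecule Icam1 rose by 3.40 ± 0.59 (SE; adjusted p = 0.00539), Tnfsf8 by 2.72 ± 0.59 (SE; adjusted p = 0.0137) and Cd200 by 1.80 ± 0.47 (SE; adjusted p = 0.0291). Tnfsf13b, the B cell survival factor BAFF, fell by 2.02 ± 0.41 (SE; adjusted p = 0.0103), and 4632428N05Rik, listed by RefSeq as a synonym of the B7 related Vsir, fell by 1.61 ± 0.36 (SE; adjusted p = 0.0165). Of the 11, 4 (Tnfsf8, Tnfsf10, Pvr and Cd200) were listed at 0 in every ITD and WT library. They entered the test through DKOITD, Tnfsf8 and Cd200 of the genes that rose among them, so the counts are a description. Against ITD the median was 0.10. Cd70 was listed at 0 in all 9 libraries.

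The receptors through which T cells read these ligands were low in all libraries. Ctla4 was listed at 0 in all libraries, Cd28 and Cd40lg were each above 0 in 1 library at less than 0.1 RPKM, and Icos, Pdcd1 and Tnfrsf9 were above 0 in DKOITD libraries alone. Tnfrsf9, the receptor of Tnfsf9, measured 0.299, 3.94, 1.54 and 1.38 RPKM there (1.32 ± 0.46 against WT, SE; limma, adjusted p = 0.0772). Icos, Pdcd1 and Tnfrsf9 entered the test through DKOITD, so this difference is a description. The 6 T cell markers summed to 2.29 to 7.70 RPKM in DKOITD libraries, 17.6 and 2.44 RPKM in ITD 1 and 2, and 9.16 to 13.7 RPKM in WT. Cd3e was listed at 0 in all 9 libraries, while Cd3d measured 0.0695 to 4.36 RPKM in DKOITD libraries, 17.6 and 2.44 RPKM in ITD 1 and 2, and 4.92 to 11.6 RPKM in WT. Lck reached 8.65 RPKM in WT 2 and Cd8a 6.61 RPKM in DKOITD 3. The NK cell markers Gzma (146 RPKM) and Ncr1 (6.95 RPKM) were above 0 in WT 2 alone. Of the other NK cell markers, Nkg7 was above 0 in all 9 libraries and Klrb1c in DKOITD 3 alone. The B cell marker Pax5 was listed at 0 in all 9 libraries. The 7 B cell markers summed to 43.5 to 76.9 RPKM in DKOITD 1 to 4, 7.65 and 23.3 RPKM in ITD and 5.16 to 15.5 RPKM in WT, of which Cd79b gave 42.1 to 70.7 RPKM in DKOITD. The part of B cells in the levels of Cd40, Cd83, Cd86 and Icosl, which B cells also make, was not tested. The dendritic factor Zbtb46 measured 8.38, 0.0820, 9.26 and 2.44 RPKM in DKOITD and 0 in the ITD and WT libraries.

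Interferon can raise Cd274, and 17 interferon induced genes were read beside it. Of these 1, Usp18, rose in DKOITD against WT (3.41 ± 0.86, SE; adjusted p = 0.0254), where 7.43% of all genes rose, a share near that of the 17. Their median was 1.57 in DKOITD against WT and 1.36 in ITD against WT, beside 0.17 and 0 for all genes. Their mean log2(RPKM + 1) was 2.17 in DKOITD 2, the lowest of the 9 libraries, where Cd274 measured 0.451 RPKM. In DKOITD 1, 3 and 4 it was 5.546, 5.698 and 5.501, where Cd274 measured 7.68, 4.24 and 0.293 RPKM. The part of interferon in the level of Cd274 was not tested.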

How the data were processed

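RNA of 9 libraries of 100 Mac1+ cells each was read by Smart-seq2, which keeps no strand, per the labels' protocols. The authors deposited RPKM per gene symbol. The submitters' processing notes name mm10, STAR 2.4.2a, SAMtools 1.1 and HTSeq 0.6.1p1, without roles. The sources used here do not give the annotation, counting settings or RPKM scaling. Without strand, overlapping and antisense genes cannot be told apart.

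Reads were recovered from the RPKM steps: 15564 of 15566 genes above 0 gave whole reads (tolerance 1e-05 reads) for a length of 20 to 30000 bp, on a scale fixed by 327 genes with GENCODE vM21 exon lengths. The GENCODE length was used where it gave whole reads and otherwise the shortest length that did, so some reads may be undercounted. Set over the recovered reads, the RPKM denominator was 1.13 to 1.44 for DKOITD, 0.853 and 0.918 for ITD, and 0.703 to 0.809 for WT. Reads copied by PCR and lacking molecular identifiers do not each stand for a molecule.

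The 10868 genes that reached 1 RPKM in 2 or more libraries were fitted as log2(RPKM + 1) with limma 3.58.1 in R 4.3.3 (eBayes with trend), all 9 libraries in one fit by genotype, two-sided, with Benjamini-Hochberg adjustment over all tested genes and a threshold of 0.05. Fold changes on this scale understate changes of low genes. The fit was tried on simulated data with independent normal noise and no lower bound, unlike the deposited values. The calls do not rest on that trial. Groups and replicate numbers come from the titles. Same-numbered libraries did not deviate together, so the fit has no block. Positions are from GENCODE vM21 (mm10), matched by symbol; 5 of the 10 genes had a RefSeq promoter window. The genes and lists were chosen with earlier results of these data known. Named genes are the 10 genes, up to 3 per list and direction past the threshold, up to 2 others as values, and the 2 nearest profiles; further genes (among them Lamp3, Il12b, Il4i1, Ccl19, Cd70 and the marker genes) were named after their values were seen. Alternatives are given at the end. Some withheld items are not reported here.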

Additional observations from a re-analysis of the deposited data

How the results depend on the processing

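Across 17 alternatives, Cd83 and Tnfsf9 kept their call in DKOITD against WT in 16 each, with log2 differences of 4.96 to 8.31 and 2.59 to 6.11; the call ended when the series of label numbers was added to the fit. Cd40 kept it in 9 of 17. Of 442 values of the genes under alternatives, 386 kept direction and side of the threshold and 29 reversed, all 29 of genes and comparisons that had not passed. The cause of each change below was not tested.

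Genes past the threshold in DKOITD against WT numbered 1380, beside 733 with no filter, 2772 scaled per recovered read (2525 up, 247 down; median of all genes 0.74), 884 with a replicate block, 4 with the number series, 771 without WT 2 and DKOITD 2 (added after seeing the data), and 537 to 1955 with 1 library left out. Against ITD the count was 23, beside 42 under quantile normalization, 274 per recovered read, 57 with the block, 0 with the series, 46 with only the groups compared, 71 without WT 2 and DKOITD 2, and 0 to 157 with 1 library left out. In ITD against WT it was 1, beside 2 with a pseudocount of 0.1, 3 with no filter, 0 with the block or with only the groups compared, and 0 to 47 with 1 library left out.

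Of the 10 genes, 3 passed against WT, beside 5 per recovered read (Icosl and Relb added, at 2.27 and 2.60), 0 with the series and 2 to 3 with 1 library left out. Against ITD 1 passed, beside 0 with a pseudocount of 0.1, no filter or the series, 2 under quantile normalization, per recovered read or with the block, and 0 to 2 with 1 library left out. In ITD against WT 0 passed throughout.

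Reversed values against WT were Cd80 at -0.023 (quantile), and Cd80, Cd86 and Cd274 at -0.23, -0.77 and -0.38 (series). Against ITD they were Cd274 at -0.16 (quantile), Cd40 at -0.14 (block), and Cd86 and Cd274 at -0.16 and -1.07 (series). In ITD against WT they were Tnfsf9 at 0.14 (pseudocount 0.1) and 0.14 (block), Relb at 0.035 (per recovered read), and Cd86 and Relb at 0.11 and 0.44 (without WT 2 and DKOITD 2). With 1 library left out, values ran from -0.062 to 1.06 for Cd80 against WT. Against ITD they ran from -0.81 to 1.14 for Cd274, -0.56 to 1.34 for Cd40, -1.96 to 0.30 for Cd80 and -0.084 to 1.57 for Icosl. In ITD against WT they ran from -0.60 to 2.71 for Cd83, -0.29 to 1.66 for Cd274, -1.32 to 0.11 for Cd86, -1.47 to 1.16 for Relb and -0.35 to 0.30 for Tnfsf9.

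The replicate numbers are only numbers: deviations of same-numbered libraries correlated at -0.044 to 0.071. Under the block Cd40 was 2.98 against WT (adjusted p = 0.086) and Cd83 5.23 against ITD (adjusted p = 0.0411). Depth limits Cd80, Fscn1 and Cd274 in DKOITD 2, at 2, 4 and 6 reads.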
